A study of Homo sapiens with 9 samples.

Results

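The HOX genes of clusters A to D encode homeodomain transcription factors, and all protein-coding genes whose symbol is HOX, a cluster letter and a paralog number were taken: 39 of the 60676 genes of the deposited table, 11 in cluster A, 10 in B, 9 in C and 9 in D. Of these, 36 passed the filter on low counts, among 17014 genes that did. The cells were RD cells, a human line derived from an embryonal rhabdomyosarcoma, a childhood tumour with features of skeletal muscle precursors, and the labels call them rhabdomyoblasts. They carried a doxycycline-inducible hairpin: a non-targeting one (shNT, the control) or 1 of 2 against TRPS1 (shTRPS1#1 and shTRPS1#2), a GATA-type zinc finger factor known mainly as a repressor. All 3 groups, the control included, received 1 µM doxycycline throughout, over 2 days of growth medium (10% fetal serum) followed by 10 days of differentiation medium (2% horse serum), so no group was free of doxycycline or kept in growth medium. There were 3 libraries per group, all from 1 cell line, and no label states that a library had a culture of its own. The p-values therefore rest on the variation among these libraries alone, part or all of which could be technical. Poly(A) RNA was sequenced to between 21965744 and 23289062 counted reads per library.

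HOX genes lie in 4 clusters in which position along the chromosome matches position along the body axis: low paralog numbers (1 to 3) mark the hindbrain, middle ones (4 to 8) the neck and trunk, and high ones (9 to 13) the lower trunk, limbs and tail end. Adult cells keep much of the HOX code of the place they came from. HOX proteins bind DNA together with PBX, MEIS and PKNOX partners, and the clusters also hold antisense and other noncoding RNAs and the miRNAs of the miR-10 and miR-196 families.

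TRPS1 itself was at 76.5, 70.0 and 74.1 CPM (a read share corrected for library size by the trimmed mean of M-values, TMM) with shNT, at 55.5, 61.8 and 56.3 CPM with shTRPS1#1 and at 56.4, 59.0 and 56.9 CPM with shTRPS1#2. All 6 knockdown libraries were below all 3 controls. The log2 fold changes were -0.35 ± 0.04 (SE) and -0.36 ± 0.04 (edgeR quasi-likelihood test, adjusted p = 2.27e-08 and 1.02e-08), and shTRPS1#2 minus shTRPS1#1 gave -0.01 ± 0.05 (edgeR adjusted p = 0.913). Of the 6 rhabdomyoblast markers MYOD1, MYOG, DES, MYH3, CHRNA1 and CDH15, 6 passed the filter. With shTRPS1#1, 5 rose (83.3%, against 13.4% of all genes called) and with shTRPS1#2, 4 rose (66.7%, against 18.9%). None was called lower against shNT. Between the hairpins 2 were called, both lower with shTRPS1#2 (33.3%, against 19.6%). Their summed level was 5066 to 5266 CPM with shNT, 6709 to 6879 CPM with shTRPS1#1 and 6490 to 6667 CPM with shTRPS1#2. Markers of leukocytes and endothelium summed to at most 0.495 CPM in any library. Of 3 epithelial markers KRT8 alone passed the filter, at 1.29 ± 0.172, 0.767 ± 0.242 and 1.39 ± 0.220 CPM with shNT, shTRPS1#1 and shTRPS1#2. With shTRPS1#2 against shNT it was not called (0.11, edgeR adjusted p = 0.8035). It was called lower with shTRPS1#1 (-0.74 ± 0.26, edgeR adjusted p = 0.0483) and higher between the hairpins (0.85 ± 0.26, adjusted p = 0.0128). The first of these calls was lost without any 1 shNT library, shTRPS1#1 replicate 1 or 2 or shTRPS1#2 replicate 2 (adjusted p 0.0536 to 0.296), and the second without replicate 1 of either hairpin (adjusted p 0.0699 and 0.124). The 3 epithelial markers summed to 1.27 to 1.71 CPM with shNT, 0.762 to 1.30 CPM with shTRPS1#1 and 1.47 to 1.63 CPM with shTRPS1#2. Of 4 fibroblast markers, DPT was at 0, TCF21 had 0 to 1 counts, and LUM and THY1 were called with both hairpins in opposite directions. LUM was higher (0.22 ± 0.04 and 0.10 ± 0.04, adjusted p = 1.06e-05 and 0.0473) and THY1 lower (-0.23 ± 0.03 and -0.14 ± 0.03, adjusted p = 7.35e-07 and 0.00205), and the 4 summed to 397.2 to 409.8, 393.1 to 410.9 and 390.9 to 403.6 CPM in the 3 groups. The second LUM call was lost without shNT replicate 1 or 3, shTRPS1#1 replicate 3 or any shTRPS1#2 library (adjusted p 0.0507 to 0.2). Between the hairpins LUM was lower (-0.12 ± 0.04, adjusted p = 0.0186), which was lost without shTRPS1#1 replicate 2 or shTRPS1#2 replicate 1 or 2 (adjusted p 0.062 to 0.255). The part of any of these markers in the HOX values was not tested.

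With the control hairpin, RD cells transcribed HOX genes of all 4 clusters and of nearly every paralog group, with cluster B highest. Levels between genes are given in RPKM, the deposited read measure that corrects for gene length and library total. HOXB9 was the highest at 28.8 ± 0.247 RPKM (SD, n = 3), followed by HOXB2 at 22.4 ± 0.850 RPKM and HOXB7 at 21.4 ± 1.06 RPKM. HOXB2 and HOXB7 overlapped between libraries, whereas HOXB9 stood above both. HOXA7 (15.2 ± 0.876 RPKM), HOXB8 (12.8 ± 0.0931 RPKM) and HOXB6 (11.7 to 12.3 RPKM) came next and did not overlap with their neighbours in that order. From HOXC10 at 9.68 ± 0.453 RPKM down to HOXB13 at 5.70 RPKM, each of the genes overlapped with the next in line, so their order is not resolved by 3 libraries.

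**Figure D1:**
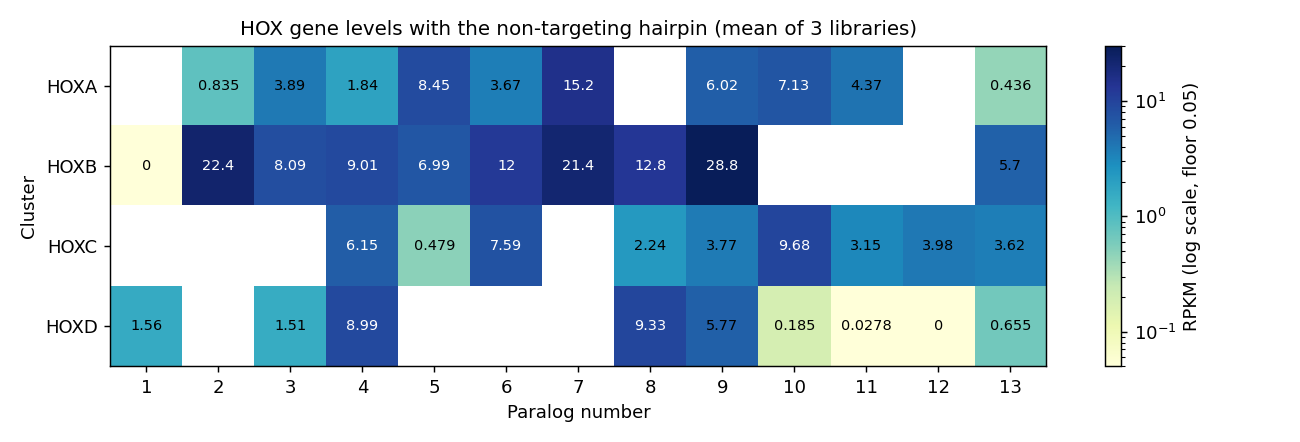
Level of each HOX gene with the non-targeting hairpin, by cluster (rows) and paralog number (columns); each cell gives the mean RPKM of 3 libraries, coloured on a log scale, and empty cells hold no value. Cluster B is darkest, with HOXB9 at 28.8, and the lowest values lie at HOXB1 and at HOXD10 to HOXD12.

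Cluster B held 50.8% ± 0.601 of the summed HOX RPKM with shNT, cluster A 21.7% ± 0.668, cluster C 16.3% ± 0.174 and cluster D 11.2% ± 0.244. By body level, paralogs 4 to 8 held 50.4% ± 0.237, paralogs 9 to 13 33.3% ± 0.368 and paralogs 1 to 3 16.3% ± 0.492. The low end of the set was spread over clusters: HOXA2 (0.835 RPKM), HOXD13 (0.655 RPKM), HOXC5 (0.479 RPKM), HOXA13 (0.436 RPKM) and HOXD10 (0.185 RPKM) were the lowest that passed the filter. HOXB1, the hindbrain gene at one end of cluster B, had 0 to 1 counts per library, HOXD11 0 to 7 and HOXD12 0 to 2, and these 3 genes were not tested. Counts of this size are at the limit of this depth and do not show that the genes are silent.

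Most HOX genes were not called against shNT, and no called change exceeded 0.45 on the log2 scale. With shTRPS1#1, 5 of 36 were called (adjusted p under 0.05 over all genes tested), all of them lower, which is 13.9%, against 13.4% of all genes called, 7.10% higher and 6.33% lower. They were HOXB7, HOXB8, HOXC9, HOXC12 and HOXC13. With shTRPS1#2, 6 of 36 were called, or 16.7%, against 18.9% of all genes: HOXA11, HOXB6, HOXB8 and HOXD3 were higher (9.01% of all genes were), and HOXA5 and HOXC12 were lower (9.87% of all genes were). In this fit neither share lay far from that of all genes, and the counts and shares under other methods are given below. In these bulk samples fewer cells with a transcript and less transcript per cell cannot be told apart. The 2 contrasts share the shNT libraries, so their values are given side by side and their likeness is not tested.

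Over all 36 genes the median log2 fold change was -0.09 with shTRPS1#1, where 30 estimates were negative and 6 positive, and 0.0085 with shTRPS1#2, where 17 were negative and 19 positive. The medians of all genes tested were 0.0011 and -0.0056. By size alone, the median absolute log2 change of the HOX genes was 0.12 and 0.09 against 0.09 and 0.10 for all genes. Of the 36, 9 were called with either hairpin and 24 in none of the 3 contrasts, the one between the hairpins included. HOXC12 was the only HOX gene called lower with both hairpins, and HOXB8 the only one called in opposite directions. These overlaps were not counted over all genes, so they describe the HOX set only.

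**Figure D2:**
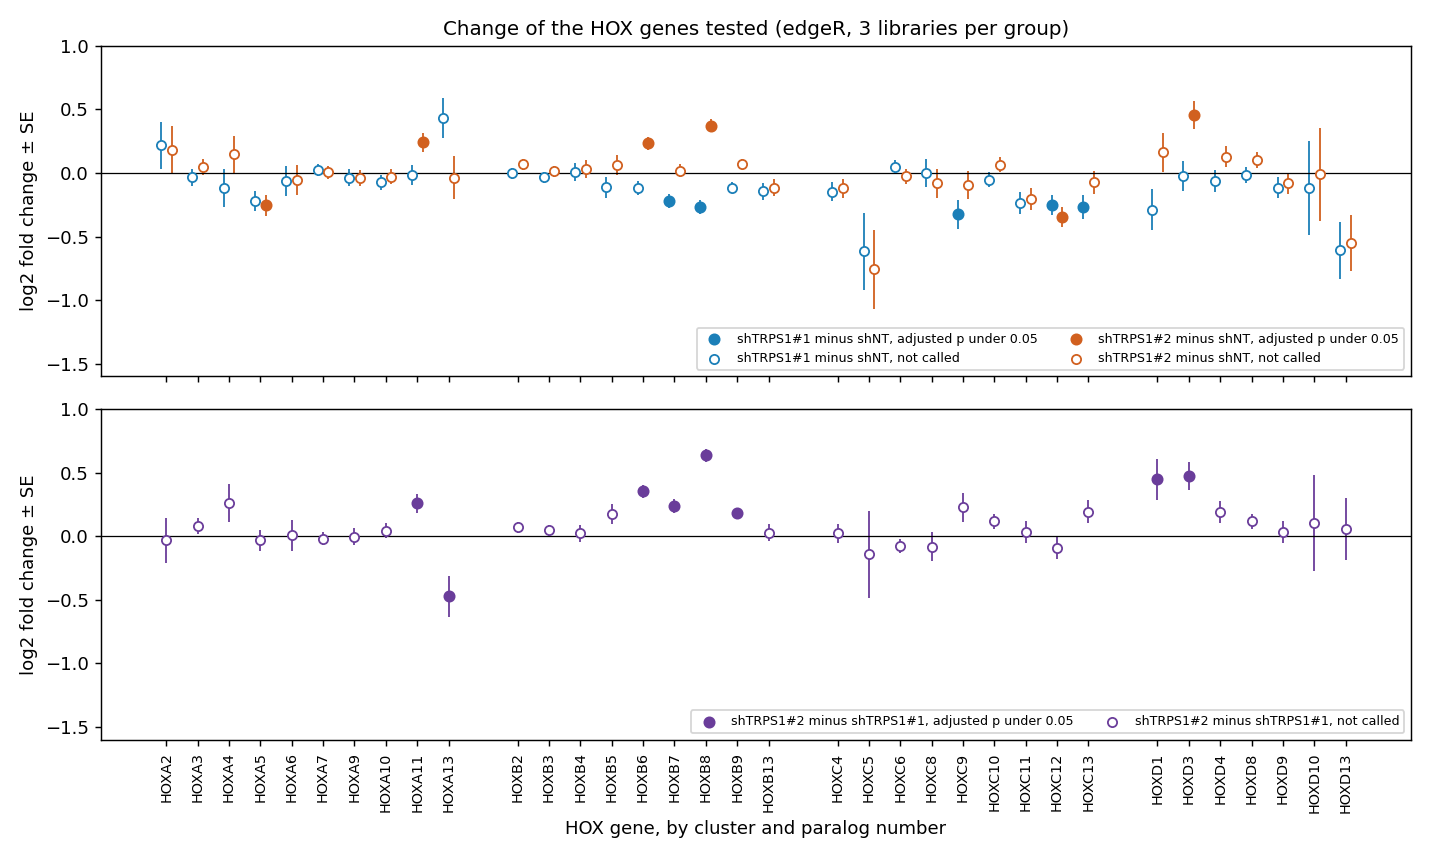
Log2 fold change (edgeR estimate ± SE) of 35 of the 36 HOX genes tested, in cluster and paralog order; the upper panel shows each hairpin against shNT and the lower panel shTRPS1#2 against shTRPS1#1, with filled points called at an adjusted p under 0.05. HOXB6, HOXB7, HOXB8 and HOXB9 form a run of filled points in the lower panel, up to 0.64 for HOXB8.

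The HOX genes that differed most clearly between the hairpins included a run of neighbouring genes in the middle of cluster B. Compared directly, shTRPS1#2 against shTRPS1#1, 8 of 36 HOX genes were called, or 22.2%, against 19.6% of all genes: 7 were higher with shTRPS1#2 (8.90% of all genes were) and HOXA13 was lower (10.7% of all genes were). The 7 were HOXA11, HOXB6, HOXB7, HOXB8, HOXB9, HOXD1 and HOXD3. HOXB6 to HOXB9 follow each other on chromosome 17 (GRCh38), where HOXB6 starts at 48595751 and HOXB9 ends at 48626356, all on the minus strand. None of the other 5 cluster B genes tested, HOXB2, HOXB3, HOXB4, HOXB5 and HOXB13, was called in any contrast. The run was singled out after its values were seen and has no test of its own.

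HOXB8 (ENSG00000120068, chromosome 17, 48611377 to 48614939), a trunk gene also known for holding back myeloid differentiation when overexpressed, had the largest difference between the hairpins of the 36 HOX genes tested. It was at 30.5, 30.6 and 31.0 CPM with shNT, at 26.1, 24.8 and 25.6 CPM with shTRPS1#1 and at 39.1, 39.0 and 41.1 CPM with shTRPS1#2. The 3 groups did not overlap, with the control between the hairpins. The log2 fold changes were -0.27 ± 0.05 and 0.37 ± 0.05 against shNT and 0.64 ± 0.05 between the hairpins (edgeR adjusted p = 0.000208, 8.34e-08 and 5.28e-14). HOXB8 shares no exon base with another gene in GENCODE 29. Its 2051 exon bases there differ from the length of 2404 behind the deposited RPKM, so the counted model may differ.

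HOXB8 is the textbook target of miR-196, whose genes lie in clusters A, B and C and which is known to cut this transcript through a near-perfect site in its 3' UTR. The mature sequences (RefSeq, GRCh38.p14) are shown 5' to 3' with the seed, bases 2 to 8, in capitals, since miR-196a and miR-196b share it and miR-10a, from the same clusters, does not.
hsa-miR-196a-5p: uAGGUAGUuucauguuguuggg
hsa-miR-196b-5p: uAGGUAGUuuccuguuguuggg
hsa-miR-10a-5p: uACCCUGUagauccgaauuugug
The stretch of each 3' UTR (GENCODE 29) that pairs best with miR-196a-5p is shown for HOXB8 and HOXA7 on the strand of the transcript, with the bases opposite the seed in capitals.
HOXB8: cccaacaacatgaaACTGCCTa
HOXA7: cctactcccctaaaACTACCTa
The HOXB8 stretch, bases 411 to 432 of its 3' UTR, pairs with 21 of the 22 bases of miR-196a-5p by Watson-Crick pairs and with the remaining 1 by a G:U pair, which falls in the seed. The HOXA7 stretch has 15 Watson-Crick pairs and an unbroken seed match, and HOXA7 was at 34.8, 38.6 and 36.2 CPM with shNT, 36.9, 36.6 and 37.9 CPM with shTRPS1#1 and 36.7, 37.0 and 36.3 CPM with shTRPS1#2, with log2 changes of 0.02 ± 0.05 and 0.0050 ± 0.05. The exact seed match ACTACCT occurs in 9 of 39 HOX 3' UTRs (23.1%), against 7.15% of 19146 genes with an annotated 3' UTR. They include HOXA5, HOXA7, HOXA9, HOXB1, HOXB6, HOXB7, HOXB13 and HOXC8. The miR-10 seed match ACAGGGT occurs in 3 (7.69%, against 12.8%). Mature miRNAs were not measured here, and a letter match is a description and not a sign that the miRNA acted.

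HOXB6 (chromosome 17, 48595751 to 48604992), a trunk gene also used in blood progenitors, was at 32.1, 30.2 and 31.4 CPM with shNT, 28.6, 29.2 and 28.5 CPM with shTRPS1#1 and 38.3, 37.4 and 34.6 CPM with shTRPS1#2. As for HOXB8, the groups did not overlap and the control lay in the middle. It was called higher with shTRPS1#2 (0.23 ± 0.05, edgeR adjusted p = 0.000614) and between the hairpins (0.35 ± 0.05, adjusted p = 7.91e-07), but not with shTRPS1#1 (-0.12 ± 0.05, adjusted p = 0.156). HOXB6 shares 32.9% of its exon bases with HOXB3 on the same strand and HOXB-AS3 on the other, and no source used here states whether counting used strand, so their reads cannot be told apart there.

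HOXB7 (chromosome 17, 48607227 to 48633572), a trunk gene often studied in tumours, was at 30.8, 33.7 and 32.9 CPM with shNT, 26.7, 28.6 and 28.2 CPM with shTRPS1#1 and 32.7, 32.7 and 33.2 CPM with shTRPS1#2. Here the shTRPS1#1 libraries alone stood apart, below the other 6. It was called lower with shTRPS1#1 (-0.22 ± 0.05, edgeR adjusted p = 0.00244) and higher between the hairpins (0.24 ± 0.05, adjusted p = 0.000714), with 0.02 ± 0.05 for shTRPS1#2 against shNT (adjusted p = 0.863). Its annotated span holds HOXB8 and HOXB9 in introns, but no exon base is shared.

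HOXB9 (chromosome 17, 48621159 to 48626356), a lower trunk gene and the highest HOX gene here, was at 75.1, 74.2 and 74.0 CPM with shNT, 65.1, 69.8 and 71.3 CPM with shTRPS1#1 and 79.2, 77.8 and 77.6 CPM with shTRPS1#2. The 3 groups did not overlap, in the same order as for HOXB8. The difference between the hairpins was called (0.19 ± 0.04, edgeR adjusted p = 0.000449), whereas shTRPS1#1 against shNT just missed the threshold (-0.12 ± 0.04, adjusted p = 0.0501) and shTRPS1#2 against shNT did not pass (0.07 ± 0.04, adjusted p = 0.246). Next to the run, HOXB5 was at 14.3 ± 1.14, 13.2 ± 1.33 and 14.9 ± 1.21 CPM (SD, n = 3) with shNT, shTRPS1#1 and shTRPS1#2, with overlapping groups (between the hairpins 0.18 ± 0.08, adjusted p = 0.121, but 0.0318 without shTRPS1#1 replicate 2). At the far end of the cluster HOXB13 was at 19.8 ± 1.03, 17.9 ± 1.26 and 18.3 ± 1.24 CPM, again overlapping.

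**Figure D3:**
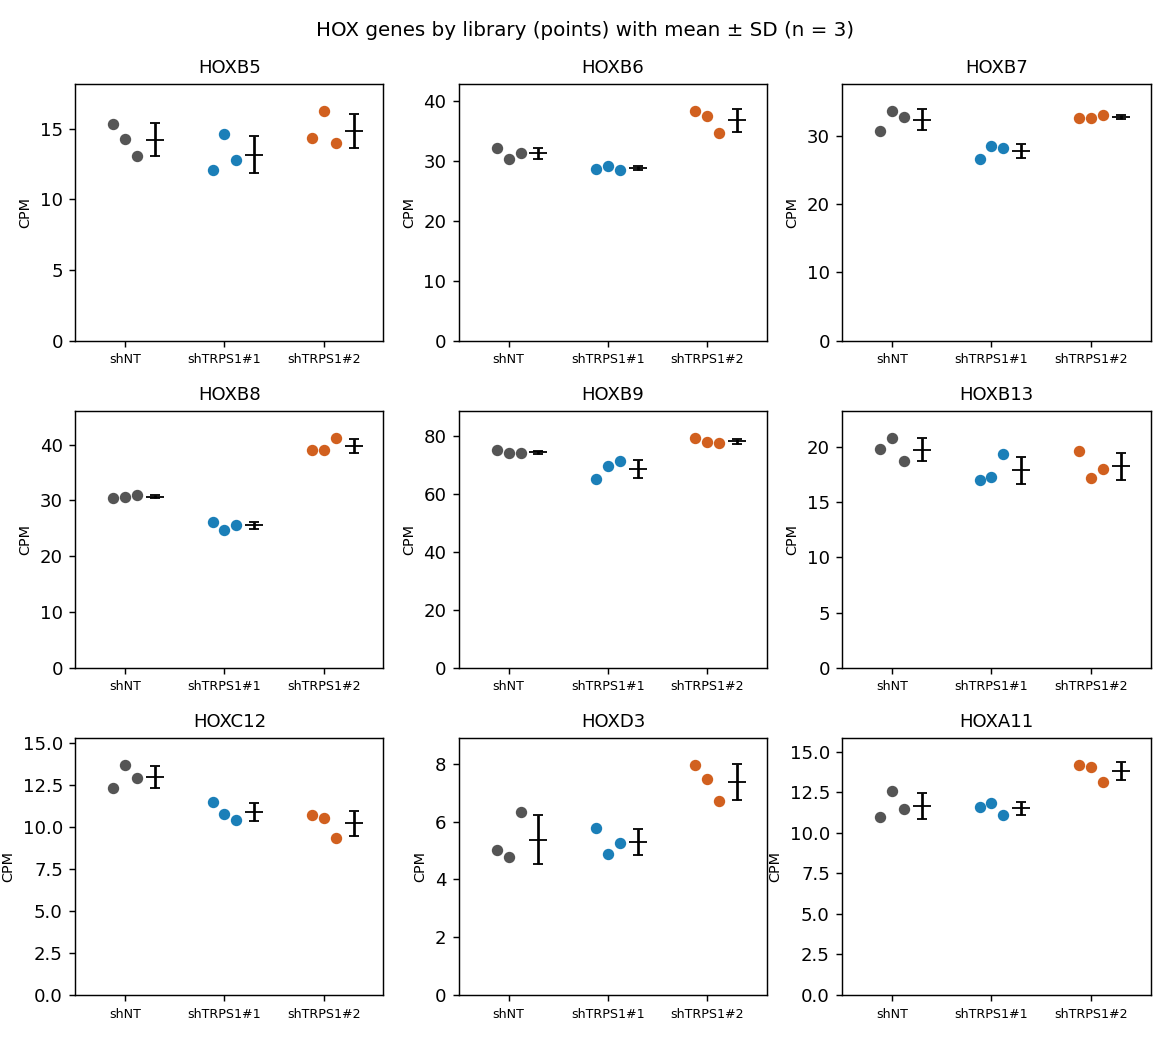
Level in CPM (linear axes from 0) of 9 HOX genes in each of the 9 libraries; points are libraries, grey for shNT, blue for shTRPS1#1 and orange for shTRPS1#2, and the black bar beside them is the mean ± SD (n = 3). HOXB8 shows 3 separate levels with shNT in the middle, while HOXB5 and HOXB13 overlap between groups.

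As a share of the summed HOX RPKM, HOXB6 to HOXB9 held 29.97% ± 0.318 with shNT, 28.4% ± 0.639 with shTRPS1#1 and 31.95% ± 0.0617 with shTRPS1#2. The other cluster B genes held 20.9% ± 0.311, 21.7% ± 0.238 and 20.7% ± 0.245. The sum over all HOX genes was 250.1 ± 5.08 RPKM with shNT, 232.5 ± 3.10 RPKM with shTRPS1#1 and 258.9 ± 2.26 RPKM with shTRPS1#2.

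Each called change against shNT in cluster C was a fall, and all lay in paralogs 9 to 13. HOXC12 (ENSG00000123407, chromosome 12, 53954834 to 53958956), a gene of the tail end of the axis, was at 12.3, 13.7 and 12.9 CPM with shNT, 11.5, 10.8 and 10.4 CPM with shTRPS1#1 and 10.7, 10.6 and 9.37 CPM with shTRPS1#2. All 6 knockdown libraries were below the controls. The log2 fold changes were -0.25 ± 0.08 and -0.35 ± 0.08 (edgeR adjusted p = 0.0221 and 0.00105), and the difference between the hairpins was not called (-0.09 ± 0.08, adjusted p = 0.514). The shTRPS1#1 call was lost when shNT replicate 2 or 3, or shTRPS1#1 replicate 2 or 3, was left out (adjusted p 0.0534 to 0.123); the shTRPS1#2 call was not lost.

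HOXC13 (53938765 to 53946544), which acts in hair and nails, was at 8.42, 8.84 and 8.35 CPM with shNT, 7.08, 6.98 and 7.19 CPM with shTRPS1#1 and 7.71, 8.49 and 8.13 CPM with shTRPS1#2. The shTRPS1#1 libraries were the lowest 3, and shTRPS1#2 overlapped with the control. HOXC13 was called with shTRPS1#1 (-0.27 ± 0.09, edgeR adjusted p = 0.0413), a call lost without any 1 of the 3 shNT or 3 shTRPS1#1 libraries (adjusted p 0.0655 to 0.141). HOXC9 (53994895 to 54003337), a gene of the lower trunk, was called with shTRPS1#1 too (-0.32 ± 0.11, adjusted p = 0.0464), from 6.28 ± 0.769 to 5.01 ± 0.249 CPM. That call was lost without shNT replicate 2 or 3, any shTRPS1#1 library or shTRPS1#2 replicate 2 (adjusted p 0.0504 to 0.247), and with DESeq2 and limma. HOXC11, between them on the chromosome, did not pass, at 10.3 ± 0.614, 8.74 ± 0.657 and 8.94 ± 0.319 CPM with shNT, shTRPS1#1 and shTRPS1#2 (-0.24 ± 0.09 and -0.20 ± 0.09, adjusted p = 0.0599 and 0.0963, the first 0.0461 without shTRPS1#1 replicate 1). HOXC4, HOXC5, HOXC6, HOXC8 and HOXC10 were not called in any contrast, except that HOXC5 with shTRPS1#2 (-0.76 ± 0.31, adjusted p = 0.0838) was called without shNT replicate 1 (adjusted p = 0.0376) and, like HOXC13 between the hairpins (adjusted p = 0.0371 and 0.0348), by limma (adjusted p = 0.0464 and 0.0493).

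Of the 11 cluster A genes, 8 were called in no contrast. HOXA5 (chromosome 7, 27141052 to 27143668), which patterns the lung and neck, was at 12.6, 15.7 and 15.2 CPM with shNT, 12.4, 12.5 and 12.6 CPM with shTRPS1#1 and 10.5, 13.4 and 12.6 CPM with shTRPS1#2. Control replicate 1 lay among the knockdown libraries. HOXA5 was called lower with shTRPS1#2 (-0.25 ± 0.08, edgeR adjusted p = 0.0249) and not with shTRPS1#1 (-0.22 ± 0.08, adjusted p = 0.0689), and the difference between the hairpins was -0.03 ± 0.09 (adjusted p = 0.848). It no longer passed with shTRPS1#2 once shNT replicate 2 or 3 or shTRPS1#2 replicate 1 was left out (adjusted p 0.118 to 0.25), and HOXA5 was called with shTRPS1#1 without shNT replicate 1 (adjusted p = 0.00666).

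HOXA11 (chromosome 7, 27181510 to 27185223), needed for the forearm, kidney and uterus, was at 10.97, 12.6 and 11.5 CPM with shNT, 11.6, 11.8 and 11.1 CPM with shTRPS1#1 and 14.2, 14.1 and 13.2 CPM with shTRPS1#2. The 3 shTRPS1#2 libraries were above the other 6. It was called higher with shTRPS1#2 (0.24 ± 0.08, edgeR adjusted p = 0.0191) and between the hairpins (0.26 ± 0.08, adjusted p = 0.0111), with -0.02 ± 0.08 for shTRPS1#1. The first call was lost without shNT replicate 1 or 3 or shTRPS1#2 replicate 1 or 2 (adjusted p 0.0661 to 0.101) and the second without shTRPS1#1 replicate 3 (adjusted p = 0.0651). HOXA13 (27193503 to 27200106), the gene of the hand, foot and hindgut, had the lowest RPKM of the called genes and was at 2.41, 2.25 and 1.97 CPM with shNT, 2.69, 3.06 and 3.21 CPM with shTRPS1#1 and 2.00, 2.07 and 2.40 CPM with shTRPS1#2. It was called in the contrast between the hairpins alone (-0.47 ± 0.16, adjusted p = 0.0305), a call lost without shTRPS1#1 replicate 2 or 3 or shTRPS1#2 replicate 1 or 2 (adjusted p 0.0746 to 0.129).

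In cluster D the called genes were the 2 at its 3' end. HOXD3 (ENSG00000128652, chromosome 2, 176136612 to 176173102), a gene of the hindbrain and upper neck, was at 5.00, 4.78 and 6.34 CPM with shNT, 5.78, 4.86 and 5.24 CPM with shTRPS1#1 and 7.94, 7.46 and 6.71 CPM with shTRPS1#2. The shTRPS1#2 libraries were above the other 6. It was called with shTRPS1#2 (0.45 ± 0.11, edgeR adjusted p = 0.00168) and between the hairpins (0.48 ± 0.11, adjusted p = 0.00104), with -0.02 ± 0.12 for shTRPS1#1. HOXD3 shares 74.1% of its exon bases with other annotated genes, among them HAGLR and HOXD-AS2 on the opposite strand, and 2206 of its 3548 exon bases with AC009336.2 on the same strand, so its reads are uncertain. HOXD1 (176188579 to 176190907) was at 2.63, 3.05 and 3.15 CPM with shNT, 2.11, 2.03 and 3.08 CPM with shTRPS1#1 and 3.45, 3.32 and 3.11 CPM with shTRPS1#2. It was called between the hairpins alone (0.45 ± 0.16, adjusted p = 0.0383), which was lost without shTRPS1#1 replicate 1 or 2 or shTRPS1#2 replicate 1 or 2 (adjusted p 0.0852 to 0.183). HOXD1 shares 58.1% of its exon bases with other annotated genes, among them HAGLR on the opposite strand, so its reads are uncertain too. HOXD13, which shapes the digits, had some of the largest estimates of the set (-0.61 ± 0.22 and -0.55 ± 0.22), from 1.58, 1.64 and 1.53 CPM with shNT to between 0.823 and 1.26 CPM in the 6 knockdown libraries. All 6 knockdown libraries were below the controls, while the hairpins overlapped with each other. Neither fold change passed in edgeR (adjusted p = 0.0623 and 0.0774). Both were called by limma on log2(RPKM + 0.5) (adjusted p = 0.0263 and 0.0342) and on log2(RPKM + 0.1) (0.0365 and 0.0498), and the first also by edgeR without shTRPS1#1 replicate 2 (adjusted p = 0.0388).

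TRPS1 binds the letters GATA, and HOX proteins prefer sites with TAAT, so both were searched on both strands of the 300-base RefSeq promoter windows (GRCh38.p14, 250 bases before to 50 after a start site). A window was given for 20 of the 39 HOX genes, 27 windows in all, with none for HOXB6 to HOXB9. GATA was found in 44.4% of these windows against 49.7% of 35116 windows of all genes. TAAT was found in 77.8% against 50.2%. The windows of HOXA11, HOXD1, HOXD3 and the noncoding gene HOXA-AS2 are shown because their transcripts were higher with shTRPS1#2 than with shTRPS1#1. GATA is in capitals, and HOXD1 and HOXA-AS2 have none.
HOXA11 (chr7:27185183-27185482, minus strand): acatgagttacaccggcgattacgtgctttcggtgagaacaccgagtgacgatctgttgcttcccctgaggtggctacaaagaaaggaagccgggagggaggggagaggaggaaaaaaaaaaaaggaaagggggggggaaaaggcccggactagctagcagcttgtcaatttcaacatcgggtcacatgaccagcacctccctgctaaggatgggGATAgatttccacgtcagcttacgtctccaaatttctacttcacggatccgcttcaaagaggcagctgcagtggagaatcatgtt
HOXD1 (chr2:176188418-176188717, plus strand): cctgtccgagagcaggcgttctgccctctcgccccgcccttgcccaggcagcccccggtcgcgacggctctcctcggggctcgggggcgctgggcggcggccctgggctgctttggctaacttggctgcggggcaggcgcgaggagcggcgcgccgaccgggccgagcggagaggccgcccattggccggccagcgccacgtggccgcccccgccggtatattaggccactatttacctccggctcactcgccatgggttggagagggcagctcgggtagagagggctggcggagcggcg
HOXD3 (chr2:176157057-176157356, plus strand): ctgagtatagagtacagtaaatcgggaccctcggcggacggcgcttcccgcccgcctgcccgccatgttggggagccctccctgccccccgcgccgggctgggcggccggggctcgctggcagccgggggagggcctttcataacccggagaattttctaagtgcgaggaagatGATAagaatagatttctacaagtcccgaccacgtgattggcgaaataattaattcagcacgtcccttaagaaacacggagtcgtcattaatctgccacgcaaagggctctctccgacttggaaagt
HOXA-AS2 (chr7:27121669-27121968, plus strand): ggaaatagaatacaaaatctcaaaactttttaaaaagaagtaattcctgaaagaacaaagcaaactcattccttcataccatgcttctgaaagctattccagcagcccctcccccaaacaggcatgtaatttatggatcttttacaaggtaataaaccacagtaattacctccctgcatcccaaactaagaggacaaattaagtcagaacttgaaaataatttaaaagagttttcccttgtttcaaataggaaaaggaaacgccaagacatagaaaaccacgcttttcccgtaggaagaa
The first base of the single GATA lies at -35 from the start site in the HOXA11 window and at -76 in the HOXD3 window. HOXA-AS2 has 7 TAAT, HOXD3 has 5, and HOXA11 and HOXD1 have 1 each. The HOXA-AS2 window is also the poorest of those shown in G and C, at 36.0%, against 51.3% to 74.3% in the others. The HOXA11 window shares 275 bases with that of HOXA11-AS, which runs the other way and was also higher with shTRPS1#2 than with shTRPS1#1. No binding was measured, so these letters are a description only.

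HOXA-AS2, HOTAIRM1 and HOXA11-AS, noncoding RNAs of cluster A, were higher with shTRPS1#2 than with shTRPS1#1, as HOXB6 to HOXB9 were. Of 19 noncoding RNAs of the clusters listed, 18 were matched by symbol and 11 passed the filter. With shTRPS1#1, 3 of them fell and 0 rose (27.3%, against 13.4% of all genes called). With shTRPS1#2, 1 fell and 1 rose (18.2%, against 18.9%), and in the direct contrast 3 were higher with shTRPS1#2 and 0 lower (27.3%, against 19.6%). The list's median log2 changes were 0.0028, 0.06 and 0.02, near the medians of all genes. HOXA-AS2, an antisense RNA of the HOXA3 region, was at 7.94, 8.36 and 8.31 CPM with shNT, 5.33, 6.94 and 5.76 CPM with shTRPS1#1 and 10.3, 9.75 and 10.75 CPM with shTRPS1#2. The groups did not overlap and the control lay in the middle. It fell with shTRPS1#1 (-0.45 ± 0.10, edgeR adjusted p = 0.000824), rose with shTRPS1#2 (0.32 ± 0.09, adjusted p = 0.00673) and differed between them by 0.77 ± 0.10 (adjusted p = 1.18e-08). The rise did not pass with limma (adjusted p = 0.0524 and 0.0676 with 0.5 and 0.1 added to the RPKM). HOXA3, which it overlaps, was not called in any contrast (-0.04 ± 0.07 and 0.05 ± 0.07). HOXA-AS2 shares exon bases with HOXA3 and HOXA4 on the other strand, so their reads cannot be told apart there.

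HOTAIRM1, a noncoding RNA known for myeloid differentiation, was at 3.51, 3.80 and 3.19 CPM with shNT, 2.24, 2.702 and 2.64 CPM with shTRPS1#1 and 3.31, 4.18 and 4.44 CPM with shTRPS1#2. It fell with shTRPS1#1 (-0.47 ± 0.15, edgeR adjusted p = 0.0285), a call lost without shNT replicate 1 or 2 or shTRPS1#1 replicate 1 or 3 (adjusted p 0.0528 to 0.151), and differed between the hairpins by 0.65 ± 0.15 (adjusted p = 0.000709). HOXA11-AS was called between the hairpins alone (0.76 ± 0.19, adjusted p = 0.00254), with 1.82 ± 0.228, 1.30 ± 0.129 and 2.22 ± 0.168 CPM with shNT, shTRPS1#1 and shTRPS1#2. It shares exon bases with HOXA11 on the other strand, and 31.1% of HOXA11 exon bases are shared, so their reads cannot be told apart there. HOTAIR, between HOXC11 and HOXC12, was at 11.4, 12.03 and 12.3 CPM with shNT, 10.4, 9.46 and 9.96 CPM with shTRPS1#1 and 9.53, 9.12 and 10.3 CPM with shTRPS1#2. It fell with both (-0.26 ± 0.08 and -0.30 ± 0.08, adjusted p = 0.0238 and 0.00517), as did its neighbour HOXC12. For shTRPS1#1 this no longer passed without shNT replicate 2 or 3 or shTRPS1#1 replicate 2 or 3 (adjusted p 0.0666 to 0.103). HOXB-AS1, HOXA-AS3, HOXA10-AS, HOXC-AS2, HOXC-AS3, HAGLR and HOXD-AS2 were not called in any contrast.

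**Figure D4:**
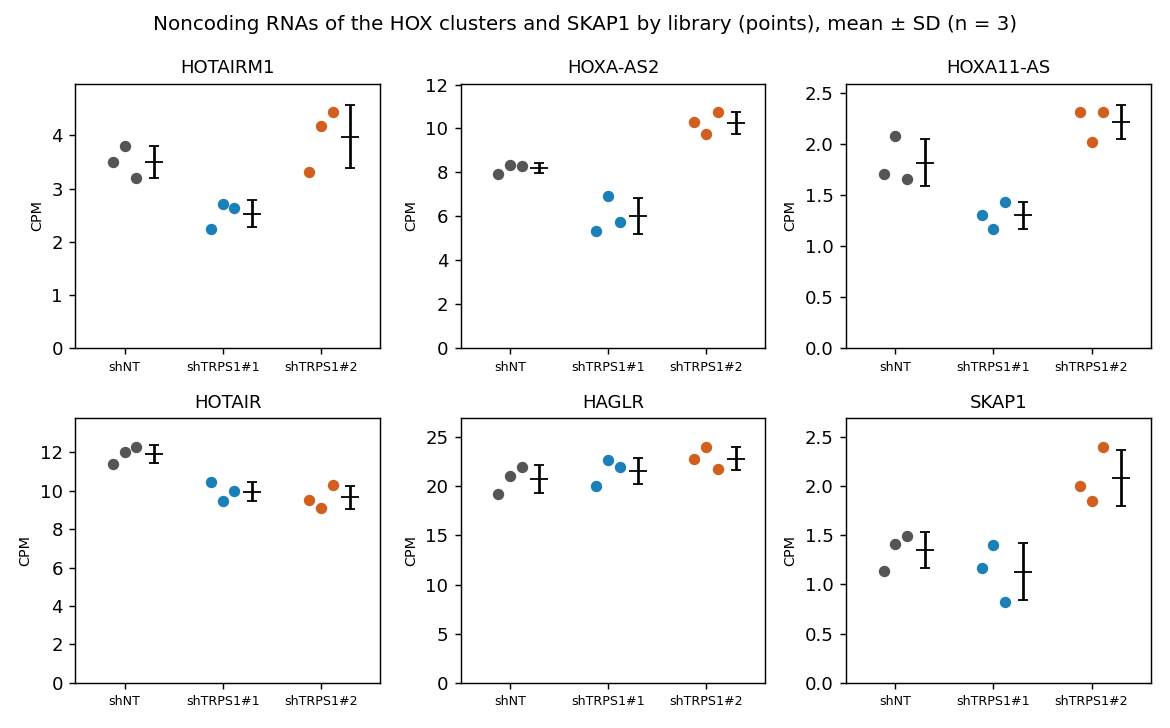
Level in CPM (linear axes from 0) of 5 noncoding RNAs of the HOX clusters and of SKAP1, a gene beside cluster B, in each library (points; grey shNT, blue shTRPS1#1, orange shTRPS1#2), with mean ± SD (n = 3) in black. HOXA-AS2 lies at 3 separate levels with shNT in the middle, HOTAIR is lower in all 6 knockdown libraries, and HAGLR overlaps between groups.

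The called DNA-binding partners of HOX proteins all fell. All 9 cofactors listed passed the filter, of which 0 rose with either hairpin, 1 fell with shTRPS1#1 (11.1%, against 13.4% of all genes called) and 3 with shTRPS1#2 (33.3%, against 18.9%). Between the hairpins 2 were called, both lower (22.2%, against 19.6%). MEIS1, a partner of the posterior HOX proteins, was at 42.4 ± 1.49 CPM with shNT, 37.4 ± 1.22 with shTRPS1#1 and 38.5 ± 0.421 with shTRPS1#2, and fell with both (-0.18 ± 0.05 and -0.14 ± 0.05, edgeR adjusted p = 0.00615 and 0.0368). The shTRPS1#1 call was lost without shTRPS1#1 replicate 3 (adjusted p = 0.055) and the shTRPS1#2 call without shNT replicate 1 or 2 or any shTRPS1#2 library (adjusted p 0.0582 to 0.154). PBX3 fell with shTRPS1#2 (-0.14 ± 0.04, adjusted p = 0.00901) and differed between the hairpins by -0.20 ± 0.04 (adjusted p = 0.000179); the first call was lost without shNT replicate 3 or shTRPS1#2 replicate 2 (adjusted p 0.068 and 0.071). PKNOX2 fell with shTRPS1#2 (-0.17 ± 0.04, adjusted p = 0.00209). PBX2, PBX4, MEIS2, MEIS3 and PKNOX1 were not called in any contrast.

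Of 33 listed regulators of the clusters, 27 passed the filter, and CDX2 and CDX4, activators of HOX genes in the embryo, were at 0 counts. The calls were 2 higher and 1 lower for shTRPS1#1 (11.1%, against 13.4% of all genes), and 1 higher and 6 lower for shTRPS1#2 (25.9%, against 18.9%). Between the hairpins they were 1 higher and 6 lower (25.9%, against 19.6%). PCGF2, also called MEL18, a subunit of the Polycomb complex that keeps HOX genes off, was at 62.6, 61.5 and 60.7 CPM with shNT, 53.7, 52.7 and 54.3 CPM with shTRPS1#1 and 54.9, 56.3 and 51.4 CPM with shTRPS1#2. It fell with both (-0.20 ± 0.04 and -0.18 ± 0.04, edgeR adjusted p = 0.000502 and 0.00119). CYP26B1, which breaks down retinoic acid, an inducer of HOX genes, was at 49.4, 48.6 and 45.7 CPM with shNT, 55.6, 51.5 and 54.9 CPM with shTRPS1#1 and 35.3, 34.8 and 33.4 CPM with shTRPS1#2. It rose with shTRPS1#1 (0.17 ± 0.05, adjusted p = 0.00551), fell with shTRPS1#2 (-0.47 ± 0.05, adjusted p = 8.39e-11) and differed between them by -0.65 ± 0.05 (adjusted p = 3.09e-15). The rise was not called without shNT replicate 3 or shTRPS1#1 replicate 1 (adjusted p 0.0518 and 0.0738). ALDH1A2, which makes retinoic acid and was named after its values were seen, also fell with shTRPS1#2 (-0.29 ± 0.05, edgeR adjusted p = 2.8e-06). It was not called with shTRPS1#1 (-0.08 ± 0.05, adjusted p = 0.261) and differed between the hairpins by -0.21 ± 0.05 (adjusted p = 0.000733). Retinoic acid was not measured, and a link of either enzyme to the HOX values was not tested. Another 2 were named after their values were seen. NR6A1, which delays the switch to tail HOX codes in the mouse embryo, rose with shTRPS1#2 (0.61 ± 0.08, edgeR adjusted p = 4.84e-08), from 10.2 ± 0.843 to 15.5 ± 0.876 CPM. It was not called with shTRPS1#1 (0.16 ± 0.09, adjusted p = 0.236). EZH2, the methylating subunit of Polycomb repressive complex 2, fell with shTRPS1#2 (-0.39 ± 0.04, adjusted p = 2.21e-10). With shTRPS1#1 the EZH2 estimate was positive and not called (0.11 ± 0.04, adjusted p = 0.0594), though called under 3 alternatives. Between the hairpins EZH2 differed by -0.50 ± 0.04 (adjusted p = 1.06e-13).

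Of 25 listed genes that flank the clusters, 21 passed the filter. The calls were 1 lower for shTRPS1#1 (4.76%, against 13.4% of all genes) and 2 higher and 1 lower for shTRPS1#2 (14.3%, against 18.9%). Between the hairpins 2 were higher and 4 lower (28.6%, against 19.6%). SKAP1, a T cell adaptor gene on the HOXB1 side of cluster B and named after its values were seen, was at 1.35 ± 0.183, 1.13 ± 0.288 and 2.08 ± 0.287 CPM with shNT, shTRPS1#1 and shTRPS1#2. Between the hairpins it differed by 0.88 ± 0.21 (edgeR adjusted p = 0.00142); HOXB2, HOXB3, HOXB4 and HOXB5, which lie between it and HOXB6, were not called. Of 32 other positional factors, 21 passed. The calls were 4 higher and 2 lower for shTRPS1#1 (28.6%, against 13.4% of all genes), 1 higher and 4 lower for shTRPS1#2 (23.8%, against 18.9%) and 1 higher and 6 lower between the hairpins (33.3%, against 19.6%). DLX1, a homeobox gene of the jaw and forebrain, fell with both (-0.25 ± 0.05 and -0.36 ± 0.05, edgeR adjusted p = 0.000447 and 1.28e-06).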

How the data were processed

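Poly(A) RNA of 9 RD libraries was read from the deposited count table of 60676 genes and from the deposited RPKM table. Per the submitters' processing notes, bcl2fastq 2.20.0.422, STAR 2.7.2b and featureCounts 1.6.5 were used with GRCh38; no source used here gives their settings, annotation release or use of strand. The deposited counts are whole reads per gene. The deposited RPKM values equal the authors' counts divided by gene length and library total, to a relative spread of 7e-14, and served for levels between genes.

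Genes were filtered with filterByExpr (minimum count 10), scaled by TMM and tested with edgeR 4.0.16 in R 4.3.3 (quasi-likelihood test, 1 mean per group, all 9 libraries, 6 residual degrees of freedom), with Benjamini-Hochberg adjustment over 17014 genes; a call is an adjusted p under 0.05, and the SE is the size of the log2 fold change over the square root of F. The fit was tested on simulated data. HOX rows were read from that fit. Every HOX gene past the filter was eligible to be named, as were cofactors and cluster noncoding RNAs past it and members of the other lists called with both hairpins; exceptions are named as such. The members and lists were chosen with earlier results of these data known. Coordinates, exon overlaps and 3' UTRs are from GENCODE 29 (GRCh38), matched by gene ID. The gene length behind the deposited RPKM differs from the GENCODE 29 exon bases for some HOX genes, such as HOXC8 (2417 against 1889) and HOXB4 (2002 against 3757). The exon overlaps given may therefore not hold for the gene models that were counted. Alternatives were RLE scaling, DESeq2 1.42.0, other filters, limma 3.58.1 on log2(RPKM + 0.5) and log2(RPKM + 0.1), the 2 compared groups alone, each library left out and a replicate block. No 2 libraries of a group were alike within sampling noise (chi-square per degree of freedom 1.27 to 2.84). The values of a few members of the HOX set and of the other lists are not reported here, though counts and sums include them.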

Additional observations from a re-analysis of the deposited data

Results flagged for a closer look

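For 8 of 36 HOX genes the level differed between the hairpins by a direct test, shTRPS1#2 minus shTRPS1#1 (edgeR adjusted p under 0.05). That is 22.2%, against 19.6% of all genes. The log2 differences were 0.26 for HOXA11, -0.47 for HOXA13, 0.35 for HOXB6, 0.24 for HOXB7, 0.64 for HOXB8, 0.19 for HOXB9, 0.45 for HOXD1 and 0.48 for HOXD3. The difference of HOXB6, HOXB7, HOXB8, HOXB9 and HOXD3 was called under all 17 alternatives run, that of HOXA11 under all except without shTRPS1#1 replicate 3 (adjusted p = 0.0651), and those of HOXA13 and HOXD1 were lost under 7 and 6. For TRPS1 itself the difference between the hairpins was -0.01 ± 0.05.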

How the results depend on the processing

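Of 105 single-gene results recomputed under 17 alternatives, 55 were called, 34 of them under every alternative, and 21 were lost under at least 1; 10 that were not called were called under at least 1. HOXB8 was called in all 3 contrasts under every alternative. With shTRPS1#1 the count of HOX genes called was 5. It was 2 with DESeq2 (HOXC9, HOXC12 and HOXC13 lost), 3 without a count filter (HOXC9 and HOXC13 lost), 6 with limma (HOXC9 lost, HOXB9 and HOXD13 added) and 2 to 6 with 1 library left out. Of all genes, 10.1% were called with DESeq2, 5.81% without a count filter and 9.89% to 9.92% with limma. With 1 library left out the share of all genes was 10.3% to 14.3%. With shTRPS1#2 the count of HOX genes called was 6. It was 4 with DESeq2 (HOXA5 and HOXA11 lost, adjusted p = 0.0931 and 0.0679), 7 with limma (HOXA5 lost, HOXC5 and HOXD13 added) and 4 to 6 with 1 library left out. For shTRPS1#2, DESeq2 called 14.1% of all genes. Without a count filter 7.92% were called, and the HOX count stayed at 6. Of the 17014 genes, limma called 2375 with 0.5 added and 2374 with 0.1 added. Leaving out 1 library gave calls for 14.4% to 19.3% of all genes. Between the hairpins the count of HOX genes called was 8. It was 6 with DESeq2 (HOXA13 and HOXD1 lost), 7 without a count filter (HOXA13 lost), 9 with limma and 0.5 added to the RPKM (HOXC13 added), 7 with 0.1 added (HOXA13 and HOXD1 lost, HOXC13 added) and 6 to 8 with 1 library left out. All genes were called at 14.6% with DESeq2, 8.36% without a count filter, and 14.9% and 14.8% with limma. Their share was 14.2% to 20.3% with 1 library left out. Same-numbered replicates did not deviate together (correlations -0.0161 to 0.0476), so the numbers do not pair the libraries. With a replicate block 7, 6 and 8 HOX genes were called, HOXA5 and HOXB9 being added with shTRPS1#1. The block gave calls for 14.7%, 20.2% and 21.1% of all genes. Among the other genes named, DESeq2 did not call HOTAIRM1 and HOTAIR with shTRPS1#1 or MEIS1 and LUM with shTRPS1#2, nor KRT8 in either contrast, and limma with 0.5 added did not call HOXA-AS2, MEIS1 and LUM with shTRPS1#2, MEIS1 with shTRPS1#1, or KRT8 in either contrast and LUM between the hairpins.

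Only values near 0 and never called changed sign. Over the 17 alternatives, the log2 change with shTRPS1#1 ranged from -0.0607 to 0.0371 for HOXA11 (0.0371 without shNT replicate 2, 0.0086 without shTRPS1#1 replicate 3). It ranged from -0.10 to 0.12 for HOXD3 (0.12 without shNT replicate 3, 0.04 without shTRPS1#1 replicate 2). For HOXA7 it ranged from -0.0106 (without shNT replicate 1) to 0.0649. With shTRPS1#2 it ranged from -0.12 to 0.0296 for HOXA13 (0.0296 without shNT replicate 1, 0.01 without shTRPS1#2 replicate 1) and from -0.0187 to 0.0504 for HOXB7 (-0.0187 without shNT replicate 1), from -0.0294 to 0.0508 for HOXA7 (-0.0294 without shNT replicate 1, -0.0028 without replicate 3) and from -0.0022 (without shTRPS1#2 replicate 2) to 0.119 for HOXB5. Between the hairpins it ranged from -0.10 to 0.0622 for HOXA5 (0.0622 without shTRPS1#2 replicate 1), from -0.0072 to 0.0577 for PCGF2 (-0.0072 without shTRPS1#2 replicate 2), from -0.0231 (without shTRPS1#1 replicate 3) to 0.0908 for HOXC11, from -0.0887 to 0.218 for HOXD13 (-0.0887 without shTRPS1#1 replicate 3, -0.0315 without shTRPS1#2 replicate 2) and from -0.0352 to 0.0386 for TRPS1 (0.0386 without shTRPS1#1 replicate 2). TRPS1 was also above 0 without shTRPS1#2 replicate 1 (0.0025) or 3 (0.00094) and with limma (0.0043 with 0.5 added, 0.0047 with 0.1). The cause was not tested. Depth limits the genes under about 2 CPM, such as HOXC5, HOXD10 and HOXD13, whose SE was 0.22 or more.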
